A study of Mus musculus with 14 samples.

Results

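The step from day 4 to day 6 of motor neuron differentiation was described for mouse ES cells labelled *Taf9b* KO. It rests on 2 of the 11 RNA-seq libraries, and on 2 of the 14 samples of the whole series: embryoid bodies (EBs) labelled KO on day 4 and EBs labelled KO on day 6. The members were the loci listed in both tables, and 12973 of 23152 were above 1 FPKM (fragments per kilobase of transcript, scaled to library size) on at least 1 of both days and had a usable status. The study asked which genes need TAF9B, a subunit found in coactivator and core promoter complexes, while ES cells turn into motor neurons. The cells of both labels were C57BL/6 ES cells grown on mitotically inactivated mouse embryonic fibroblasts, then differentiated as EBs in a neural medium with retinoic acid and the smoothened agonist SAG. The cells labelled KO are a single male clone, Taf9b_BG10, in which a *LacZ-Neo* cassette stands in place of the coding exons of the X-linked gene. The cells labelled WT, used here only for contrast, are the JM8 line. The labels call day 4 EBs neuronal progenitors and day 6 EBs motor neurons.

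In this protocol retinoic acid neuralizes the cells and gives them a caudal hindbrain and spinal identity, which is read out by the *Hox* genes, and SAG turns on the Sonic hedgehog (Shh) pathway and so ventral progenitor genes. Progenitors of the neural tube are held dividing by Notch signaling, and as it is relieved proneural bHLH factors start neuron formation and later the LIM homeodomain factors and *Mnx1* specify motor neurons. ES cells keep themselves undifferentiated through *Pou5f1*, *Nanog* and their partners, which are normally silenced on the way.

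There were no replicates: each condition is 1 library, so no test was made, and every ratio below describes 2 libraries and not the spread of a condition. Loci are called risen or fallen when the log2 ratio of FPKM, day 6 over day 4, lay above 1 or below -1 after centring on the median of the 11622 loci above 1 FPKM on both days. That median was 0.03 on the log2 scale. The libraries labelled KO had 12252 loci above 1 FPKM on day 4 and 12383 on day 6, and their depth is unknown because no read counts are given.

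*Taf9b* (NM_001001176, chrX:103402213-103416497 of mm9) did not match the label, as far as an FPKM over the whole transcript can tell: whether its reads lay in the deleted coding exons was not tested. In the libraries labelled KO it was at 3.06 FPKM in ES cells, 4.08 FPKM on day 2, 4.27 FPKM on day 4 and 4.01 FPKM on day 6. The libraries labelled WT held 1.96 FPKM on day 4 and 1.37 FPKM on day 6, less than the libraries labelled KO at the same days. Because of these *Taf9b* values, "labelled KO" stands below for the label alone. *Mid1*, another X-linked gene, and *Ccnc* were looked at beside it, chosen after their values were seen. *Mid1* was at 2.91, 1.57, 7.495 and 1.93 FPKM in the same 4 libraries labelled KO. It was at 147 and 96.5 FPKM in the libraries labelled WT on day 4 and day 6. *Ccnc* was alike on these days, at 14.6 and 17.6 FPKM labelled KO and 15.1 and 19.04 FPKM labelled WT. Neither is the targeted gene, so their levels do not test the label.

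Between day 4 and day 6, 1567 loci rose, 12.1% of those tested, and 1495 fell, 11.5%. These shares, over all loci tested, are the background for each gene list below. The remaining 9911 loci, 76.4%, stayed within 2-fold, and changes past 8-fold were seen at 224 loci upward and 164 downward. Of the genes of the undifferentiated state 13 of 16 rose, with 11 of 15 fibroblast and 9 of 15 simple epithelium genes. Of neural tube progenitor genes 8 of 11 fell, with 7 of 12 Notch and 7 of 12 Shh pathway genes and 12 of 15 *Hox* genes of paralog groups 1 to 5. In bulk samples fewer cells of a type and less RNA per cell cannot be told apart.

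Transcript length moved with these changes. Loci whose longest annotated transcript was over 8 kb had a median centred log2 ratio of -1.05, and 53.3% of these 501 loci fell. Loci of up to 1 kb had a median of 0.50, and 23.7% of these 650 rose while 2.77% fell. Medians went down from class to class in between, from 0.35 for 1 to 2 kb to -0.51 for 5 to 8 kb. The step labelled WT had the same order, from 0.63 to -0.90, and the step from day 2 to day 4 in the libraries labelled KO had the opposite one, from -0.28 to 0.56. Both steps labelled KO share the day 4 library, and from day 2 to day 6, without it, the medians went from 0.23 to -0.46. Labelled WT, the step from day 2 to day 4 also had the opposite order, from -0.28 to 0.34. The plot of medians by transcript length shows both steps from day 4 to day 6 and the KO-labelled step from day 2 to day 4. *Huwe1* and *Birc6*, which encode very large ubiquitin ligases and were chosen after their values were seen, went from 54.2 to 12.3 FPKM and from 15.7 to 3.34 FPKM. Relative to a smooth trend over transcript length, chosen after these values were seen, 1353 of 12303 loci rose and 962 fell. These counts are the background for list counts given relative to this trend. The part of length in the lists was not tested, and medians relative to this trend are given for some lists below.

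**Figure D1:**
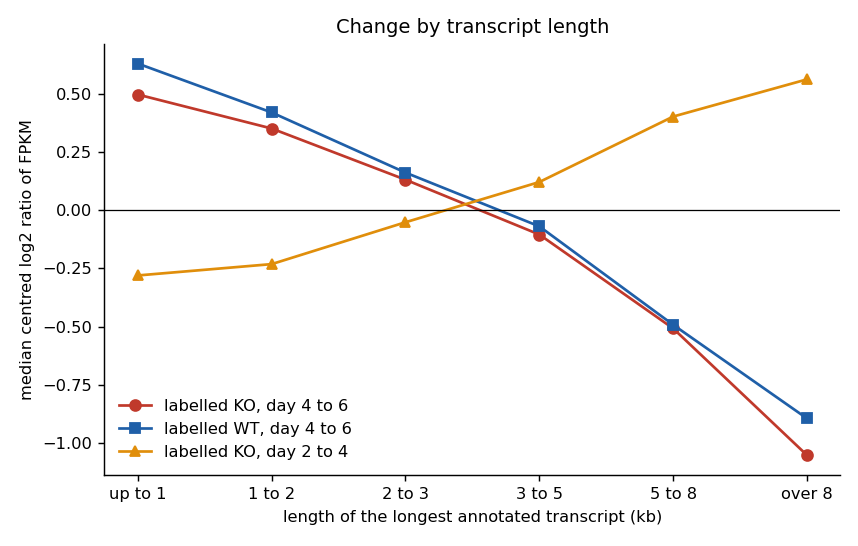
Median centred log2 ratio of FPKM (y axis) by length class of the longest annotated transcript (x axis, kb), for the step from day 4 to day 6 labelled KO and labelled WT and for the step from day 2 to day 4 labelled KO, 1 library per side. The KO-labelled step from day 4 to day 6 falls from 0.50 in the shortest class to -1.05 in the longest.

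**Figure D2:**
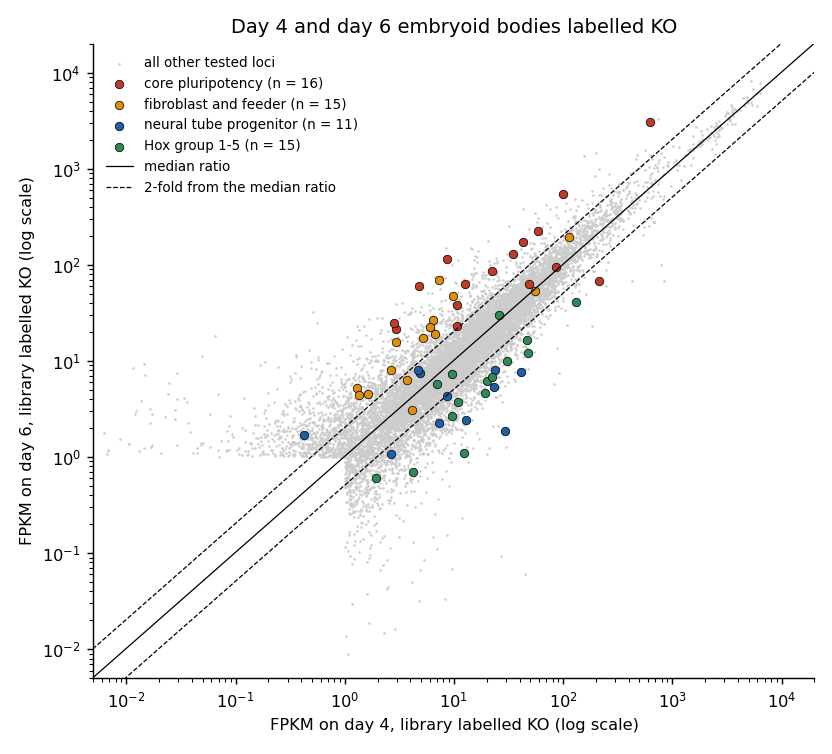
FPKM on day 4 (x axis) and day 6 (y axis) in the libraries labelled KO, on log scales, for tested loci above 0 on both days, with 4 gene lists in colour. The solid line is the median ratio and the dashed lines lie 2-fold from it: 13 of 16 core pluripotency genes lie above the upper dashed line, and 8 of 11 neural tube progenitor genes and 12 of 15 *Hox* genes of groups 1 to 5 lie below the lower one.

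The 10 largest rises of protein-coding genes above 1 FPKM on both days included surface and secreted proteins of stromal and epithelial cells and 1 gene of ES cells. *Ly6a*, the stem and stromal cell antigen Sca-1, went from 1.29 to 23.1 FPKM, 17.6-fold. *Fam25c* went from 8.46 to 151 FPKM and *Tm4sf1*, a tetraspanin-like membrane protein, from 1.06 to 18.0 FPKM. The junction protein gene *Jam2* (1.68 to 27.1 FPKM), the matrix protein gene *Ccn3* (1.502 to 23.4 FPKM), the secreted phospholipase gene *Pla2g7* (1.36 to 21.1 FPKM), the collagen-cleaving protease gene *Ctsk* (1.96 to 28.0 FPKM), the secreted growth factor-binding protein gene *Igfbp7* (2.94 to 39.2 FPKM) and the acute-phase gene *Saa3* (1.27 to 16.6 FPKM) followed. Among the 10 was also *Tdgf1*, the Nodal co-receptor of ES cells, at 8.62 FPKM on day 4 and 114 FPKM on day 6. Among genes above 20 FPKM on both days the stress-induced *Nupr1* (20.6 to 179 FPKM), the calcium-binding protein gene *S100a6* (31.6 to 254 FPKM), the secreted phosphoprotein *Spp1* (202 to 1473 FPKM), the myosin light chain gene *Mylpf* (69.1 to 424 FPKM) and *Pou5f1* (99.1 to 543 FPKM) rose most. All of them were also higher on day 6 than on day 4 in the libraries labelled WT.

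Neural genes were among the 10 largest falls. *Fgf15*, a growth factor of the neural tube, went from 20.3 to 1.07 FPKM, 19.4-fold. The endothelin receptor gene *Ednrb* went from 20.7 to 1.24 FPKM and *Pax6*, the homeodomain factor of neural progenitors, from 29.5 to 1.88 FPKM. *Crabp2* (chr3:87752615-87757294 of mm9), which carries retinoic acid to its nuclear receptor, was the most abundant gene of this set and went from 843 to 68.7 FPKM, 12.5-fold. *Prtg*, a cell surface protein of the early neural tube, went from 92.5 to 7.57 FPKM, and *Lin28b*, a repressor of let-7 processing, from 25.1 to 2.13 FPKM. *Fndc3c1* (14.9 to 1.26 FPKM), *Hoxd4* (12.4 to 1.11 FPKM), the carbonic anhydrase gene *Car3* (17.0 to 1.53 FPKM) and the heparan sulfate sulfotransferase gene *Hs6st2* (22.7 to 2.13 FPKM) completed the 10. Among genes above 20 FPKM on both days, *Crabp2*, the D-type cyclin gene *Ccnd2* (183 to 23.2 FPKM), *Metrn*, which encodes a secreted glial and neurite factor (109 to 23.9 FPKM), *Cd24a* (247 to 60.3 FPKM) and the gap junction gene *Gja1* (160 to 50.1 FPKM) fell most. *Metrn* and *Cd24a* were 4.47-fold and 3.86-fold lower relative to the step labelled WT, in which they moved by -0.06 and -0.11 on the log2 scale.

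Of the tested loci, 13 were listed at 0 on day 4 and 71 at 0 on day 6. The 5 highest of each set were loci of microRNAs and small nucleolar RNAs, led by *Mir5119* at 628 FPKM on day 6 and by *Mir762* at 1297 FPKM on day 4. The libraries were made from poly-A RNA, and whether these values reflect the small RNAs or longer transcripts over them was not tested. *Mir762* was listed at 0 on day 6 in the library labelled WT as well, where it had been at 1652 FPKM on day 4. Loci shorter than 300 bp made up 0.893% of the risen and 1.81% of the fallen loci, 14 and 27, against 0.462% of all tested.

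Letters of known regulatory elements in the promoters of 6 genes are shown because the letters were found in them. *Nanog* and *Zfp42* belong to the ES cell genes described next, *Hes5* to the Notch targets, *Cyp26a1* and *Rarb* to the retinoic acid targets and *Fam25c* to the largest rises. Most members of these lists lack the letters. The sequences are from RefSeq on build GRCm38.p6, run 5′ to 3′ on the strand of the gene from 250 bases before to 50 bases after the annotated start, and the capitals mark the letters searched, in either orientation. The letters were TTTGCAT for *Nanog* and the octamer ATGCAAAT for *Zfp42*, both bound by POU factors such as OCT4, GTGGGAA for *Hes5*, bound by the Notch partner RBPJ, GTTCA, any 5 bases and AGTTCA for *Cyp26a1* and *Rarb*, the direct repeat bound by retinoic acid receptors, and TGACTCA for *Fam25c*, bound by AP-1. The regions are chr6:122707239-122707538 (*Nanog*, + strand), chr8:43306960-43307259 (*Zfp42*, - strand), chr4:154960673-154960972 (*Hes5*, + strand), chr19:37697558-37697857 (*Cyp26a1*, + strand), chr14:16575427-16575726 (*Rarb*, - strand) and chr14:34355344-34355643 (*Fam25c*, - strand).
Nanog: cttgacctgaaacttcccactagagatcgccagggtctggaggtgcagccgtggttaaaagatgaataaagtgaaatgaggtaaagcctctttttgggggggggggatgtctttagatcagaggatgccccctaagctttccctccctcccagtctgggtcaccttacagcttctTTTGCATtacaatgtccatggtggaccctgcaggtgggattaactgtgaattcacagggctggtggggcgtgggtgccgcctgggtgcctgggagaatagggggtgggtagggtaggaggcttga
Zfp42: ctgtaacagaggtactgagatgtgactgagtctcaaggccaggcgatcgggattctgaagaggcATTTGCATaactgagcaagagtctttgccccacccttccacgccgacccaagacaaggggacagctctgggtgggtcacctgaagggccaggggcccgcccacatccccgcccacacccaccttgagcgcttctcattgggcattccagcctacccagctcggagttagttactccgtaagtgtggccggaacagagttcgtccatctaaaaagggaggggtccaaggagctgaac
Hes5: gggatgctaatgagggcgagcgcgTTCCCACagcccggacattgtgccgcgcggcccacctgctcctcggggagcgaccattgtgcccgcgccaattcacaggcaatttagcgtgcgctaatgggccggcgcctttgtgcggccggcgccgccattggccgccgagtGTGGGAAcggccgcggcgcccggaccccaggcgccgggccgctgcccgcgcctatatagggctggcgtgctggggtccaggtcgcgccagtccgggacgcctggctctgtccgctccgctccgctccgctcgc
Cyp26a1: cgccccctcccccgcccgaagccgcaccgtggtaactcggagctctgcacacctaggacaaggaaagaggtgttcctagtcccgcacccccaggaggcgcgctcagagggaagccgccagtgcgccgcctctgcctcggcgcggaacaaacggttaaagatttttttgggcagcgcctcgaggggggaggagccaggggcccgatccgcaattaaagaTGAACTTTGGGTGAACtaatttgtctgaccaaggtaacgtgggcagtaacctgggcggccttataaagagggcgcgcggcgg
Rarb: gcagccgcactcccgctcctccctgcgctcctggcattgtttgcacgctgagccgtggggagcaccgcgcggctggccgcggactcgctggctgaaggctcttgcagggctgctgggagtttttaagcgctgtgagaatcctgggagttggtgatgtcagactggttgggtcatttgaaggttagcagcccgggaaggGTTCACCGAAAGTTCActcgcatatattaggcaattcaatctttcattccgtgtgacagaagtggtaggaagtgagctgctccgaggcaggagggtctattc
Fam25c: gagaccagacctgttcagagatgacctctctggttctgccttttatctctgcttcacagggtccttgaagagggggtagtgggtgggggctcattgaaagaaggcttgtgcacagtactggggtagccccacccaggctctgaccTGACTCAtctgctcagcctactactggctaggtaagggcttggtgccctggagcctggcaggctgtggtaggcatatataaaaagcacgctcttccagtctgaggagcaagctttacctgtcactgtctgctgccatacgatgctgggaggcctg

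The matches began 75 bases before the start in *Nanog* (151 bases before its other annotated start), 186 in *Zfp42*, 32 in *Cyp26a1*, 52 in *Rarb* and 105 in *Fam25c*, and *Hes5* held a pair of matches, 226 and 83 bases before it. TTTGCAT was in 3 and the octamer in 1 of 13 core pluripotency genes with a promoter in the table, GTGGGAA in 3 of 10 Notch pathway genes and the direct repeat in 2 of 15 retinoic acid genes. The direct repeat was rare: 0.0407% of the 27025 genes with a promoter in the RefSeq table held it. The octamer was in 1.97% of all promoters, in 1.71% of the 10111 tested genes with a promoter, in 2.56% of the risen (95% Wilson interval 1.78 to 3.65) and in 1.99% of the fallen ones. TTTGCAT, which overlaps the octamer, was in 5.24% of all, 4.12% of tested, 5.02% of risen (interval 3.90 to 6.45) and 3.78% of fallen genes. GTGGGAA was in 7.25% of all, 7.24% of tested, 8.28% of risen and 8.42% of fallen genes. For TGACTCA the shares were 5.95% of all, 4.32% of tested, 8.19% of risen (interval 6.74 to 9.93) and 4.35% of fallen genes, and for the letters TATAAA, not shown above, 15.7%, 8.85%, 15.9% (13.9 to 18.2) and 8.99%. TGACTCA and TATAAA were chosen after the values were seen. A match is a description of these windows and not a binding site.

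The label neuronal progenitors of day 4 was checked first. *Pax6* was at 29.5 FPKM, *Sox1* at 7.31 FPKM, *Olig2* at 4.67 FPKM and *Nkx6-1*, the ventral homeodomain factor, at 2.67 FPKM in the day 4 library labelled KO. The library labelled WT held 109, 30.7, 59.9 and 30.2 FPKM of the same genes, so progenitor genes were present but lower in the library labelled KO. *Olig2* had been higher before, at 18.6 FPKM in ES cells and 12.6 FPKM on day 2. The label motor neuron of day 6 found little in the library labelled KO. *Isl1* was at 0.55 FPKM, *Lhx3* at 0.34 FPKM, *Isl2* at 0.35 FPKM, *Lhx4* at 0.02 FPKM and *Mnx1* at 1.62 FPKM, and *Chat*, the acetylcholine-making enzyme, was listed at 0. The library labelled WT held 11.0, 14.9, 2.02, 2.83, 14.3 and 1.05 FPKM of these genes on day 6. The label motor neuron is thus not borne out by its defining markers in the day 6 library labelled KO.

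Neural tube progenitor genes were lower on day 6. Of 15 listed, 11 were tested, 8 fell, 1 rose and 2 stayed within 2-fold, with a median centred log2 ratio of -1.58 against 0.01 over all tested loci. After *Pax6*, the largest falls were those of the SoxB1 gene *Sox3* (41.2 to 7.68 FPKM), the intermediate domain factor *Dbx1* (12.9 to 2.44 FPKM), the intermediate filament gene *Nes* (23.3 to 5.43 FPKM) and *Sox1* (7.31 to 2.24 FPKM). *Irx3*, *Nkx6-1* and *Nkx6-2* also fell, from 23.7, 2.67 and 8.67 FPKM to 8.04, 1.08 and 4.31 FPKM. *Olig2* was at 4.67 and 8.02 FPKM and *Olig1* at 4.91 and 7.52 FPKM, both within 2-fold. The riser was *Msx1*, a dorsal and mesenchymal homeodomain gene, from 0.43 to 1.69 FPKM. Relative to the trend over transcript length the median was -1.41. *Pax6* was at 0.61 FPKM in ES cells and 0.88 FPKM on day 2, whereas *Olig1*, like *Olig2*, had been higher before, at 37.2 and 24.5 FPKM.

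Notch pathway genes fell or stayed, and none of 12 rose. The 7 that fell hold a ligand, 3 receptors, a receptor modifier and 2 targets. The ligand gene *Dll1* went from 9.74 to 2.22 FPKM, *Notch1*, *Notch2* and *Notch3* went from 8.49, 11.9 and 18.1 to 2.46, 2.95 and 7.87 FPKM, and *Lfng*, whose product glycosylates Notch, from 5.40 to 1.69 FPKM. The targets *Hes5* and *Hey1* went from 3.61 to 0.53 FPKM and from 6.32 to 1.91 FPKM. *Hes5*, whose promoter is shown above, was at 71.0 and 24.4 FPKM in the libraries labelled WT. *Hes1*, a target that other pathways also drive, stayed at 40.9 and 33.6 FPKM. Several of these transcripts are long, and relative to the length trend the median of the list was -0.88 in place of -1.47, with 5 of 12 past 2-fold.

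Shh pathway genes went the same way: 7 of 12 tested fell and none rose, with a median of -1.05. The receptor gene *Ptch1*, itself a target of the pathway, went from 26.5 to 4.41 FPKM, 6.14-fold, and the receptor gene *Smo* from 30.9 to 12.6 FPKM. The transcription factor genes *Gli3* and *Gli1* went from 11.0 to 2.63 FPKM and from 6.94 to 3.34 FPKM, the co-receptor genes *Cdon* and *Gas1* from 9.66 to 4.30 FPKM and from 17.3 to 8.74 FPKM, and the floor plate factor *Foxa2* from 5.08 to 2.22 FPKM. *Sufu*, an inhibitor, stood at -0.95 on the log2 scale, and *Gli2*, *Boc* and *Hhip* lay between -0.30 and 0.50. On day 4 *Gli1* was close to its ES cell level of 7.25 FPKM in the library labelled KO but at 36.4 FPKM in the library labelled WT. The median relative to the length trend was -0.86, with 5 past 2-fold.

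Retinoic acid genes moved in both directions: 6 of 17 rose and 3 fell, with a median of 0.21. *Crabp2*, the carrier, fell as given above, while *Crabp1*, at 194 and 143 FPKM, stayed. Of the receptors *Rarb*, a direct target, fell from 30.2 to 14.8 FPKM, *Rara* stayed at 26.5 and 28.3 FPKM, and *Rarg* rose from 23.8 to 62.6 FPKM. The enzymes that break retinoic acid down did not fall: *Cyp26a1* stayed at 77.5 and 68.0 FPKM, *Cyp26b1* rose from 6.78 to 15.9 FPKM and *Cyp26c1* from 0.87 to 2.18 FPKM. *Cyp26a1* and *Rarb* both carry the direct repeat shown above, and were at or under 0.21 FPKM in ES cells and on day 2. *Rbp4*, which carries retinol, and *Dhrs3*, which reduces retinaldehyde, rose from 1.42 and 19.99 FPKM to 3.93 and 42.2 FPKM. *Aldh1a1*, a synthesis enzyme, went from 1.48 to 0.14 FPKM.

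Genes of neuron formation were low and mostly did not come up. Of 10 proneural bHLH genes 4 were above 1 FPKM on a day, and 3 of them fell. *Neurog2*, which drives motor neuron formation, fell from 1.62 to 0.22 FPKM and *Neurod1* from 2.94 to 1.16 FPKM, while *Neurog1* was at 1.63 and 2.93 FPKM. In the libraries labelled WT *Neurog2* was at 15.8 and 44.3 FPKM. Of 10 motor neuron genes 3 were tested and all 3 fell. *Mnx1* went from 5.01 to 1.62 FPKM and *Prph*, the peripherin gene, from 104 to 33.8 FPKM. *Prph* had been at 85.3 FPKM already on day 2, when *Mnx1* was at 0.31 FPKM and *Isl1* at 0.23 FPKM.

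Pan-neuronal genes moved apart. Of 20 listed, 15 were tested, 7 fell, 4 rose and 4 stayed within 2-fold, with a median of -0.58. The fallen were the RNA-binding protein gene *Elavl2* (6.90 to 1.98 FPKM), the synaptic vesicle gene *Syp* (5.27 to 1.79 FPKM), the adhesion gene *L1cam* (1.60 to 0.55 FPKM), the intermediate filament gene *Ina* (14.4 to 5.36 FPKM), the growth cone gene *Gap43* (18.5 to 7.82 FPKM), *Map2* (3.28 to 1.49 FPKM) and *Crmp1* (36.4 to 18.4 FPKM). The risen were *Tubb3* (18.0 to 41.3 FPKM), the microtubule regulator *Stmn2* (11.8 to 63.1 FPKM), *Mapt* (0.78 to 3.55 FPKM) and *Nefm* (1.12 to 4.09 FPKM). *Tubb3* and *Stmn2* are not silent in undifferentiated cells: they were at 29.97 and 124 FPKM in the ES cell library labelled KO. *Elavl3*, a marker of young neurons, was at 1.41 and 0.96 FPKM. The list summed to 150 FPKM on day 4 and 190 FPKM on day 6, against 162 and 1665 FPKM in the libraries labelled WT.

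**Figure D3:**
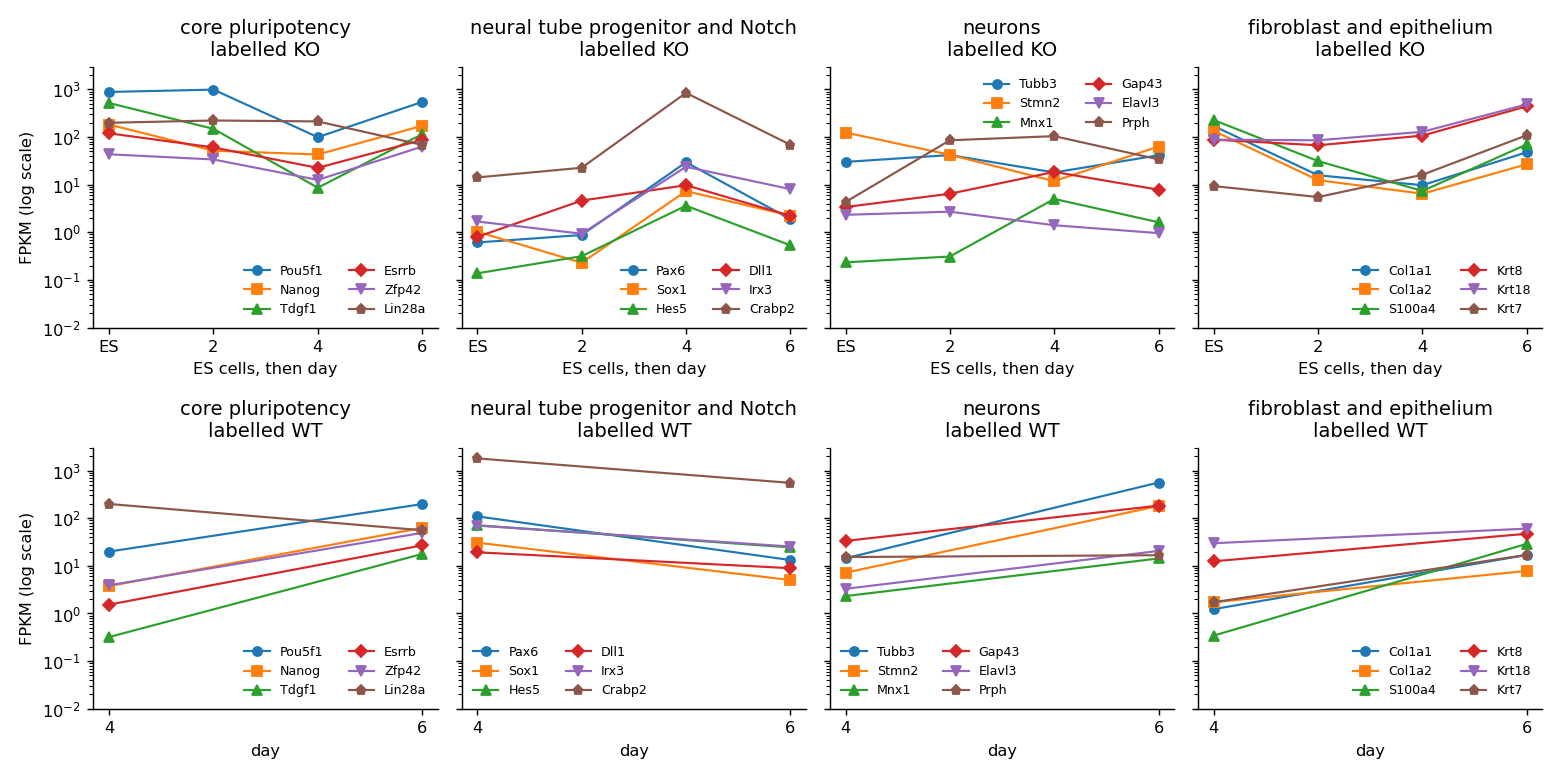
FPKM (y axis, log scale) of 24 named genes in 4 groups, in the libraries labelled KO (upper row: ES cells, day 2, day 4, day 6) and labelled WT (lower row: day 4, day 6), 1 library per point. In the libraries labelled KO the pluripotency genes other than *Lin28a* turn up after day 4, for example *Pou5f1* from 99.1 to 543, while *Pax6* turns down from 29.5 to 1.88.

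*Hox* genes are given by paralog group, which follows the body axis. Calls differed between the groups, and the rises in groups 6 to 13 rest mostly on genes under 1 FPKM on day 4. All 15 tested genes of paralog groups 1 to 5, which mark hindbrain and cervical levels, were at 0.43 FPKM or below on day 2, and summed to 398 FPKM on day 4. On day 6 they summed to 150 FPKM, and 12 of 15 had fallen, with a median of -1.70. The largest falls were those of *Hoxd4* and *Hoxd3* (4.17 to 0.70 FPKM), which the tables place at 1 shared locus (chr2:74548101-74586328 of mm9), *Hoxc5* (19.4 to 4.61 FPKM) and *Hoxb5* (47.3 to 11.99 FPKM). *Hoxa5*, at 25.8 and 30.5 FPKM, did not fall. In groups 6 to 9 none of 11 fell and 6 rose, with a median of 1.21. *Hoxb6*, *Hoxb7* and *Hoxb8* were the lowest of these, between -0.94 and -0.66, and *Hoxa6* (0.13 to 1.16 FPKM) and *Hoxc6* (0.72 to 4.37 FPKM) the highest. With only the 5 genes above 1 FPKM on both days kept, the median was -0.66, so the positive median rests on genes under 1 FPKM on a day. In groups 10 to 13, 4 of 5 tested rose, such as *Hoxa10* from 0.18 to 2.86 FPKM and *Hoxd13* from 0.80 to 4.75 FPKM. *Hoxd13* had been at 2.03 FPKM in ES cells. Only 1 of the 5 was above 1 FPKM on day 4, so the others entered through the day on which they were high. Their median was 2.25, and 1.14 with a pseudocount of 1 FPKM. By cluster, 5 of 10 tested *Hoxb* genes fell and 1 rose, while 2 of 9 *Hoxa* genes fell and 4 rose.

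**Figure D4:**
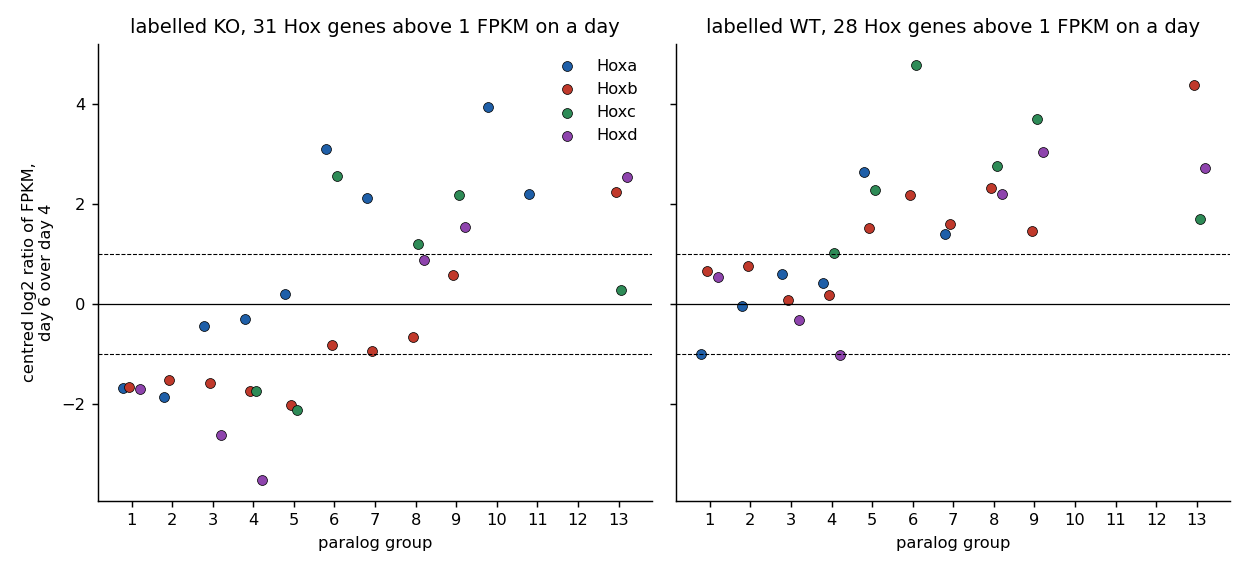
Centred log2 ratio of FPKM, day 6 over day 4 (y axis), of *Hox* genes above 1 FPKM on a day, by paralog group (x axis) and cluster (colour), in the libraries labelled KO (left, 31 genes) and labelled WT (right, 28 genes); dashed lines mark 2-fold. Groups 1 to 5 have a median of -1.70 on the left and 0.55 on the right.

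Core pluripotency genes rose: 13 of 16, with 1 fall, 2 within 2-fold and a median of 1.95. They summed to 7293 FPKM in ES cells labelled KO, 4444 FPKM on day 2, 1276 FPKM on day 4 and 4808 FPKM on day 6. *Pou5f1* (chr17:35642977-35647722 of mm9), which encodes OCT4, was at 880, 987, 99.1 and 543 FPKM in this order, and *Nanog* at 182, 51.5, 42.9 and 172 FPKM. *Dppa5a*, an RNA-binding protein gene of ES cells, went from 619 to 3080 FPKM. *Tdgf1* (8.62 to 114 FPKM), *Nr0b1* (4.81 to 60.3 FPKM), *Fgf4* (2.82 to 24.7 FPKM) and *Klf4* (2.97 to 21.5 FPKM) had the largest ratios. *Esrrb*, *Utf1*, *Klf2*, *Klf5*, *Tfcp2l1* and *Zfp42* (12.6 to 62.7 FPKM) also rose. *Sox2*, which neural progenitors share with ES cells, stayed at 85.7 and 95.7 FPKM and *Sall4* at 49.1 and 63.7 FPKM. *Lin28a*, which binds let-7 precursors, fell from 212 to 68.2 FPKM and was also lower on day 6 in the libraries labelled WT. Of 6 tested genes of the primed state 1 rose, *Fgf5* from 0.50 to 1.08 FPKM, and none fell. *Dnmt3b*, at 249 FPKM on day 2, was at 22.4 and 17.5 FPKM.

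Genes that ES and germ cells share gave a mixed account. Of 8 germ cell genes 3 rose: the RNA-binding protein gene *Dazl* (2.21 to 12.3 FPKM), *Nanos3* (1.80 to 5.92 FPKM) and *Prdm14* (1.78 to 5.59 FPKM). *Prdm1* fell from 6.46 to 2.21 FPKM, and *Dppa3*, a marker of germ cells and of ES cells, was at 32.3 and 20.6 FPKM. In the Nodal pathway, which ES cells use through *Tdgf1*, the ligand gene *Nodal* (14.1 to 48.0 FPKM), the ligand gene *Gdf3* (7.78 to 29.99 FPKM), and the feedback inhibitor genes *Lefty2* (6.52 to 20.8 FPKM) and *Smad7* (5.23 to 20.5 FPKM) rose with *Tdgf1*. The receptor genes *Acvr2a* and *Acvr2b* fell, from 7.47 to 3.60 FPKM and from 15.4 to 6.03 FPKM, and the median of the 15 was -0.10. *Dnmt3l*, the DNA methyltransferase cofactor of ES and germ cells, rose from 24.7 to 104 FPKM and *Tet3* fell from 5.43 to 1.75 FPKM, the 2 called genes of 7 in the DNA methylation list. Relative to the length trend 3 of these 7 were past 2-fold upward and none downward.

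Fibroblast genes moved with pluripotency genes. Of 15 genes of fibroblasts and feeder cells, 11 rose and none fell, with a median of 1.70. *S100a4* went from 7.36 to 70.0 FPKM, *Col1a1* from 9.74 to 47.7 FPKM, *Col1a2* from 6.44 to 26.8 FPKM, the collagen cross-linking enzyme gene *Loxl1* from 2.95 to 15.6 FPKM and decorin (*Dcn*) from 6.03 to 22.5 FPKM. *Fn1*, at 55.3 and 53.6 FPKM, *Fbn1*, *Col5a1* and *Vim* stayed within 2-fold. None of the 15 was at 0 in any library used here. The list summed to 1437 FPKM in the ES cell library labelled KO, which was grown on feeders, then 308, 227 and 500 FPKM on days 2, 4 and 6, and to 252 and 429 FPKM in the libraries labelled WT on days 4 and 6. The smooth muscle genes *Acta2* and *Tagln*, at 170 and 150 FPKM in ES cells, were at 0.66 and 8.43 FPKM on day 4 and at 1.75 and 23.3 FPKM on day 6. The part of carried-over fibroblasts in these values was not tested.

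Simple epithelium and trophectoderm genes rose in 9 of 15 cases and fell in none, with a median of 1.74, and of 1.10 with a pseudocount of 1 FPKM. The keratin pair of simple epithelia, *Krt8* and *Krt18*, was at 107 and 128 FPKM on day 4 and at 441 and 484 FPKM on day 6. A further keratin gene of this class, *Krt7*, rose from 16.1 to 109 FPKM. *Plet1* and *Hand1*, genes of the trophoblast lineage, went from 3.34 to 39.9 FPKM and from 1.16 to 14.5 FPKM, *Ascl2* from 4.82 to 16.5 FPKM and *Cdx2* from 1.15 to 3.68 FPKM. *Elf5*, a defining trophoblast factor, was at 0.04 and 0.20 FPKM. The junction and adhesion genes *Cdh1*, *Cldn7*, *Epcam* and *Cldn4* stayed within 2-fold, between -0.39 and 0.23. Of 7 epidermal genes *Sfn* (23.5 to 104 FPKM) and *Krt17* rose and *Dsp*, *Krt15* and *Grhl2* fell, and *Trp63*, the defining factor, was at 0.11 FPKM on day 6.

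Mesoderm genes rose in 7 of 12 cases, with no fall and a median of 1.46. Over the 8 above 1 FPKM on both days it was 0.51. Besides *Hand1*, *Eomes* (0.73 to 7.09 FPKM), *Pdgfra* (1.15 to 5.89 FPKM) and *Twist1* (4.67 to 12.7 FPKM) rose, while *T*, the defining gene of nascent mesoderm, was at 0.27 FPKM and *Tbx6* at 0.19 FPKM on day 6. Definitive endoderm genes fell in 4 of 10 cases, among them *Prox1* (3.18 to 0.43 FPKM), *Foxa2* and the chemokine receptor gene *Cxcr4* (7.81 to 3.54 FPKM). *Sox17* was at 4.78 and 2.81 FPKM and *Gata6*, which rose, at 1.46 and 4.76 FPKM. Of 17 extraembryonic endoderm genes 5 rose, led by *Thbd* (1.07 to 6.54 FPKM) and *Sparc* (57.7 to 282 FPKM), and *Lrp2*, an endocytic receptor gene with a very long transcript, fell from 13.4 to 0.89 FPKM. The median of these genes was 0.33, and 0.67 relative to the length trend, with 8 risen. *Afp*, *Ttr* and *Apoa1*, made by differentiated yolk sac endoderm, were under 0.20 FPKM on both days. Vessel and blood genes rose in 3 of 7 cases, *Pecam1* (6.81 to 19.4 FPKM), which ES cells also express, *Lmo2* and *Esam*, with *Cdh5* at 0.88 and 1.44 FPKM and *Kdr* at 0.36 and 0.38 FPKM. Only 4 of the 7 were above 1 FPKM on both days, with a median of 0.55 in place of 0.86.

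Further neural and mesenchymal lists gave calls in both directions or few tested genes. Of 15 spinal interneuron genes 7 were tested. *En1* (0.35 to 1.38 FPKM) and *Lbx1* (0.51 to 1.45 FPKM) rose and *Lhx1* fell from 2.28 to 0.63 FPKM, with a median of 0.79, of 0.47 relative to the length trend and of 0.09 over the 2 genes above 1 FPKM on both days. Of 15 transmitter and neuropeptide genes 5 were tested, and the secretory granule genes *Vgf* (2.73 to 11.2 FPKM) and *Chga* (2.31 to 5.79 FPKM) rose with the glutamate transporter gene *Slc17a7*, while *Scg3* fell. Of 14 glial genes 7 were tested, 3 rose, among them *Sox9* (1.43 to 3.31 FPKM), and 1 fell. Of 7 tested cardiac and smooth muscle genes 4 rose, *Myl7* (0.89 to 4.98 FPKM) and *Myl4* (1.47 to 6.22 FPKM) with *Acta2* and *Tagln*. *Myl7* and *Acta2* were under 1 FPKM on day 4 and passed the filter through day 6. The median of the list was 1.38, 0.96 over the 5 genes above 1 FPKM on both days, and 0.70 with a pseudocount of 1 FPKM. In the list of epithelial and mesenchymal state 3 of 12 rose and 5 fell, with a median of -0.26, and of 0.07 relative to the length trend. The cadherin gene of neural epithelium, *Cdh2*, fell from 36.4 to 7.74 FPKM and the splicing regulator gene *Esrp1* from 26.03 to 6.90 FPKM, while *Snai1*, a repressor of epithelial genes, rose from 3.72 to 13.05 FPKM.

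Genes of cell division changed little, with exceptions among the cyclins. Of 26 genes 23 stayed within 2-fold, with a median of -0.17. *Ccnd2*, the cyclin D gene of neural progenitors, fell 8.05-fold as given above, *Ccnd3* rose from 63.6 to 190 FPKM, and *Ccnd1* was at 38.2 and 55.8 FPKM. *Mki67*, a proliferation marker with a very long transcript, fell from 26.2 to 6.10 FPKM, whereas *Cdk1* was at 55.6 and 71.1 FPKM and *Pcna* at 320 and 327 FPKM. Of 10 inhibitor genes 5 rose and none fell, or 3 and 1 relative to the length trend. *Cdkn2b* went from 4.396 to 33.4 FPKM, *Cdkn2a* from 21.5 to 100.1 FPKM, *Cdkn1c* from 53.5 to 169 FPKM and *Gadd45a* from 40.2 to 106 FPKM. *Cdkn2a* and *Cdkn2b* are neighbours on the chromosome. Of 22 p53 target and apoptosis genes *Bax* rose, from 183 to 380 FPKM, and 3 fell, among them *Apaf1* and *Bcl2*, with a median of 0.01. Relative to the length trend none of the 22 rose and 1 fell.

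Imprinted genes fell in 3 of 15 cases and rose in 4. *Igf2* and *H19*, neighbours with opposite imprints, rose from 85.3 to 331 FPKM and from 55.4 to 349 FPKM, and *Cdkn1c* and *Dlk1* rose too, while *Peg3*, *Grb10* and *Mest* fell, *Peg3* from 39.8 to 7.73 FPKM. Imprinted genes had a median of -0.36, and of 0.22 relative to the length trend. Among growth factor genes 10 of 20 rose and 2 fell. Of the 20, 15 were above 1 FPKM on both days, with a median of 0.65 in place of 0.83. *Wnt7b* (7.28 to 19.01 FPKM), *Wnt5a* (2.19 to 5.88 FPKM), *Wnt6* and *Bmp4* (2.32 to 6.91 FPKM) rose with *Fgf4*, and the falls were those of *Fgf15* and *Fgf3*. Household lists stayed: none of 20 ribosomal protein genes and 1 of 16 respiratory chain genes passed 2-fold, with medians of 0.10 and 0.61, and of -0.31 and 0.23 relative to the length trend. Of 17 genes for TFIID subunits and paralogs 1 rose, *Taf7l*, a testis paralog, from 1.83 to 6.69 FPKM, and *Taf9*, the close relative of *Taf9b*, was at 146 and 118 FPKM. Of 20 glycolysis and hypoxia genes 3 rose, led by *Pfkp* (7.61 to 42.4 FPKM), or 1 relative to the length trend, and *Ldha* was at 143 and 185 FPKM.

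In the same 2 days the libraries labelled WT changed in part alike. There 2048 loci rose, 16.1% of 12758 tested, and 1366 fell, 10.7%. Of 1234 loci that rose in the step labelled KO and were tested in both, 947 rose in the step labelled WT as well, 76.7% of the first list and 51.9% of the second, 1826 loci. Of 1370 that fell, 765 fell in both, 55.8% of the first and 60.0% of the second, 1276 loci. Opposite calls were few, 55 loci fallen in the step labelled KO and risen in the other, and 17 the reverse. The steps share no library, but both lines of a day stand in the same deposited table, and how they were scaled is not given.

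The steps labelled KO and WT were also compared locus by locus. Of 12203 loci with values above 0 in all 4 libraries and tested in both steps, the KO-labelled ratio was more than 2-fold below the WT-labelled ratio at 1255, 10.3%, and more than 2-fold above it at 337, 2.76%. Among pan-neuronal genes it was more than 2-fold below at 14 of 15, with a median difference of -3.38, and among *Hox* genes of groups 1 to 5 at 13 of 15. The same held for 9 of 16 core pluripotency genes, 7 of 15 fibroblast and feeder genes, 7 of 14 imprinted genes and 4 of 8 germ cell genes. Other lists went the other way: the KO-labelled ratio was more than 2-fold above at 7 and below at 2 of 16 extraembryonic endoderm genes, and above at 4 and below at none of 12 Shh pathway genes. Among protein-coding genes above 1 FPKM in all 4 libraries *Sst*, the somatostatin gene, differed most, from 3.02 to 1.99 FPKM labelled KO and from 2.19 to 130 FPKM labelled WT. *Hoxc5*, the neurofilament gene *Nefl* (13.7 to 26.04 FPKM against 3.86 to 148 FPKM), *Mnx1* and *Tubb3* (14.4 to 561 FPKM labelled WT) followed. On the other side *Thbs1*, an extracellular matrix gene, was at 2.36 and 5.97 FPKM labelled KO and at 8.48 and 1.84 FPKM labelled WT. *Sall3* (1.46 and 2.50 against 5.86 and 1.07 FPKM), the glycogen phosphorylase gene *Pygb* (51.2 and 29.8 against 194 and 15.0 FPKM), the basement membrane gene *Col4a1* (24.9 and 42.4 against 50.7 and 13.01 FPKM) and the floor plate border gene *Nkx2-9* (9.80 and 7.46 against 19.6 and 2.36 FPKM) came next. Relative to each step's own trend over transcript length the counts were 1141 and 324, of 11652 loci with a length.

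Lists with a like direction in both steps differed in size and in level. Core pluripotency genes had a median ratio of 1.95 labelled KO and 3.64 labelled WT, but from unlike starts: they summed to 1276 FPKM on day 4 and 4808 FPKM on day 6 labelled KO, and to 437 and 1746 FPKM labelled WT. *Pou5f1* was at 19.9 and 198 FPKM and *Nanog* at 3.77 and 62.5 FPKM in the libraries labelled WT, below the libraries labelled KO on both days. Neural tube progenitor genes had medians of -1.58 and -1.26, and Shh pathway genes -1.05 and -1.31. Cell division genes had medians of -0.17 labelled KO and -0.75 labelled WT, and in all 26 the KO-labelled ratio was the higher one. In the plot of list medians the pan-neuronal, proneural and motor neuron lists and the *Hox* groups 1 to 5 stand more than 0.5 from 0 on opposite sides, and 6 other lists, such as imprinted genes (-0.36 and 0.66), also have opposite signs. For motor neuron genes the medians cover different genes, 3 and 9, and over the 3 shared ones the median labelled WT was 0.08. In each of these 3 the KO-labelled ratio was more than 2-fold below the WT-labelled one.

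**Figure D5:**
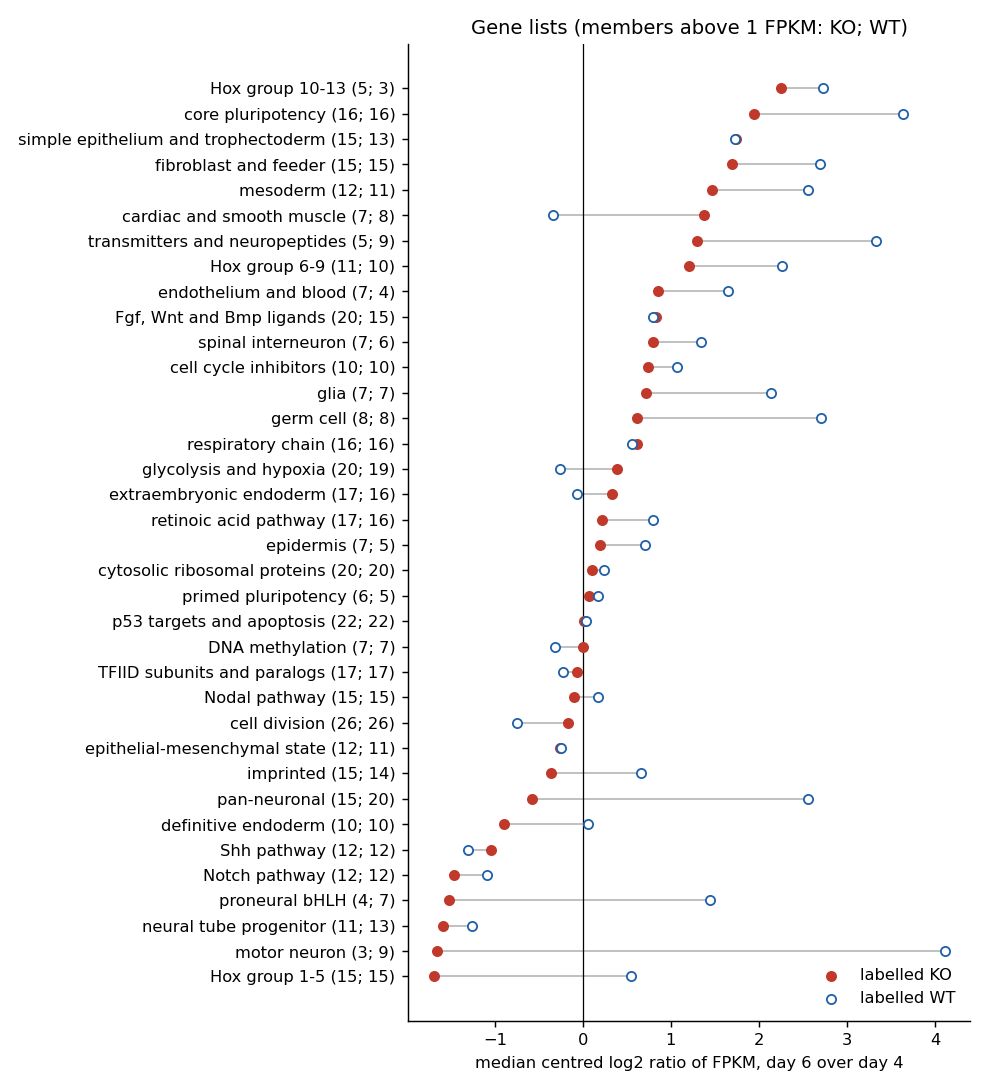
Median centred log2 ratio of FPKM, day 6 over day 4 (x axis), of gene lists with at least 3 tested members, in the libraries labelled KO (filled) and labelled WT (open), sorted by the former, with the number tested in each in brackets. Core pluripotency stands at 1.95 and 3.64, pan-neuronal genes at -0.58 and 2.56.

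Set beside the step before it, from day 2 to day 4 in the libraries labelled KO, medians went the other way for several lists, and both steps share the day 4 library. Core pluripotency genes stood at -1.48 and then 1.95, fibroblast and feeder genes at -1.002 and then 1.70, neural tube progenitor genes at 2.97 and then -1.58, and Notch pathway genes at 0.95 and then -1.47.

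TAF9B and RNA POL2 peaks came from day 8 EBs of another ES cell clone, HBG3, labelled wild type. Among tested loci placed on the annotation, 27.2% of 12384 had a TAF9B peak within 500 bp of the start and 49.2% an RNA POL2 peak. Both kinds of peak were less frequent at risen and at fallen loci, and the intervals, which cover counting error only, did not overlap those of the loci within 2-fold. Of the 1463 risen loci 13.9% had a TAF9B peak (95% Wilson interval 12.2 to 15.7) and 17.6% an RNA POL2 peak (15.8 to 19.7). Of the 1427 fallen loci 18.7% (16.8 to 20.8) and 38.0% (35.5 to 40.5) had one. The loci within 2-fold stood at 30.5% (29.6 to 31.5) and 55.8% (54.8 to 56.8). Expression level moved with this: the median of the higher of both days was 6.51 FPKM at risen, 6.59 FPKM at fallen and 12.6 FPKM at all tested loci. With only loci at a mean above 10 FPKM kept, TAF9B peaks were at 17.9% of risen, 22.7% of fallen and 33.1% of the other loci, and RNA POL2 peaks at 32.6%, 52.2% and 66.3%. Of the 16 core pluripotency genes 1 had a TAF9B peak, *Klf5*, and none an RNA POL2 peak. Of the 15 *Hox* genes of groups 1 to 5, 5 had a TAF9B peak, among them *Hoxa2*, *Hoxb2*, *Hoxb5* and *Hoxd1*, and 1 an RNA POL2 peak. In the progenitor list *Olig1*, *Olig2* and *Msx1* had a TAF9B peak.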

How the data were processed

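Poly-A RNA was sequenced by the authors, mapped against RefSeq genes with TopHat and quantified with Cuffdiff, and the deposited unit is FPKM for 1 library per condition, in a table per day that holds both lines. The score of each deposited peak is that of MACS, which the authors ran on reads mapped with Bowtie to mm9. Versions are not given in the sources used here. The tables also hold the authors' log2 fold changes and p-values between both lines, which were not used. The spinal column and spinal cord tables were not used.

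Tables were joined on the first RefSeq accession and the locus, and 43 loci with a repeated key were left out. HIDATA and FAIL loci were dropped, among them *Eef1a1* and *Eef2*, listed at 0 on day 4. Symbols came from RefSeq accessions (22728 loci) or, by at least 90% reciprocal overlap, from gencode vM1 (257 loci). Log2 ratios had no pseudocount. A locus at 0 on 1 day stands past all measured ratios. Where a symbol has several loci, the most abundant one stands for it. Lists were described by counts and medians. Libraries were grouped by their GEO labels, and as 1 library stands for each condition there is no error between replicates and no test. Named genes were the 10 largest changes each way above 1 FPKM on both days, the 5 largest above 20 FPKM, the 5 highest of those at 0 on 1 day, the 5 largest differences each way to the step labelled WT above 1 FPKM in all 4 libraries, list members, and genes the study names. The members and the lists were chosen with earlier results of these data known. Starts of loci are 1-based. Wilson intervals cover counting error only. A lowess trend over transcript length used 0.3 of the loci per point. Alternatives were a pseudocount, centring, filters, status, level and length trends, the locus per symbol, other folds, and other peak settings. The centring and calls were tested on simulated data. Promoter sequences were matched by symbol, for 10111 of 12856 tested symbols. Values were computed in pandas 2.3.3 and numpy 2.4.6 under Python 3.11.15, with lowess from statsmodels 0.14.6 and plots from matplotlib 3.10.9.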

Additional observations from a re-analysis of the deposited data

Results flagged for a closer look

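In 4 gene lists the median log2 ratio stood on opposite sides of 0 in the steps labelled KO and WT by more than 0.5 each, and the differences were not tested. Pan-neuronal genes stood at -0.58 labelled KO (15 tested) and 2.56 labelled WT (20 tested). *Hox* genes of groups 1 to 5 stood at -1.70 and 0.55, over the same 15 genes. Proneural bHLH genes stood at -1.52 (4 tested) and 1.44 (7 tested), and over the 4 tested in both the medians were -1.52 and 1.05. The KO-labelled value was -0.90 with a pseudocount of 1 FPKM, -0.28 over the 2 genes above 1 FPKM on both days and -0.25 over all 10 without a filter. Motor neuron genes stood at -1.65 (3 tested) and 4.11 (9 tested). Over the 3 motor neuron genes tested in both the medians were -1.65 and 0.08, so the 4.11 labelled WT rests on which genes passed 1 FPKM. In all 3 the KO-labelled ratio was more than 2-fold below the WT-labelled one, with a median difference of -4.23.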

How the results depend on the processing

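No paired analysis was possible because each condition is 1 library, and for the same reason no library could be left out. The counts of 1567 risen and 1495 fallen loci depended on the filter and the fold. The number tested also changed with the filter, from 12973 in the main setting. Without a filter on low values 3793 of 19587 rose and 3293 fell. With 1 FPKM required on both days 969 of 11586 rose, and with a pseudocount of 1 FPKM 965 of 12973 fell. Relative to the trend over transcript length, an alternative added after seeing the data, 962 of 12303 fell. At 4-fold the counts were 548 and 400 of 12973, and at 1.5-fold 2794 and 2828. The count of loci with the KO-labelled ratio more than 2-fold below the WT-labelled one, 1255 of 12203, was 683 of 12203 with the pseudocount. It was 749 of 10844 with 1 FPKM required in all 4 libraries. The median of *Hox* groups 6 to 9, 1.21, was 0.54 with the pseudocount and changed sign to -0.66 with 1 FPKM required on both days, which kept 5 genes. Of the other medians of the core pluripotency, neural tube progenitor, pan-neuronal, fibroblast and *Hox* 1 to 5 and 6 to 9 lists under the alternatives, 52 lay within a 1.5-fold change of the ratio itself. For the remaining lists 258 did and 12 did not. The cause of these shifts was not tested. Depth is unknown, so low values carry an error that could not be estimated.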

Other observations

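A group of genes of a rare, early-embryo-like state of ES cells, chosen after its values were seen, went from near 0 to a few FPKM in the libraries labelled KO. *Zscan4a*, *Zscan4b*, *Zscan4c*, *Zscan4d* and *Zscan4f*, which encode zinc finger proteins of the embryo after the first division, were between 0.01 and 0.02 FPKM on day 4 and at 3.85, 2.82, 7.19, 2.78 and 8.39 FPKM on day 6. *Tcstv1* and *Tcstv3*, which are expressed in the same state, went from 0.03 and 0.02 FPKM to 2.51 and 1.33 FPKM, and *Gm5662* from 0.01 to 9.31 FPKM. None of these 8 passed 0.04 FPKM in the ES cell library or on day 2. *Usp17la*, of the same group, was at 0.12, 0.20, 0.04 and 1.11 FPKM in ES cells and on days 2, 4 and 6. In the libraries labelled WT the *Zscan4* genes were between 0.28 and 0.68 FPKM on day 4 and between 3.02 and 10.6 FPKM on day 6. The *Zscan4* copies are near-identical, so reads may be split between them and single values are uncertain.

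Some reproductive homeobox genes of the X chromosome, chosen after their values were seen, rose as well. Other genes of this family were not counted. *Rhox6* went from 14.7 to 148 FPKM and *Rhox9* from 15.3 to 113 FPKM in the libraries labelled KO, past their ES cell levels of 2.91 and 2.51 FPKM, with *Rhox1* at 1.57 and 4.91 FPKM and *Rhox13* at 0.22 and 1.55 FPKM. Labelled WT, *Rhox6* was at 1.15 and 27.6 FPKM. *Dppa2*, an ES and germ cell gene chosen in the same way, went from 15.5 to 124 FPKM against 35.8 FPKM in ES cells. Of the loci that fell, 6.76% lie on the X chromosome, against 3.64% of those that rose and 3.44% of all tested.

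Some secreted and matrix genes, picked after their values were seen, were lowest on day 4. *Mgp* was at 149, 102, 9.52 and 100.2 FPKM in ES cells and on days 2, 4 and 6 in the libraries labelled KO, *Mmp3* at 33.2, 37.9, 6.32 and 51.3 FPKM and the urokinase receptor gene *Plaur* at 26.8, 20.6, 4.10 and 35.7 FPKM. On days 4 and 6 labelled WT, *Mgp* was at 0.90 and 21.8 FPKM, *Mmp3* at 0.38 and 12.9 FPKM and *Plaur* at 2.64 and 4.65 FPKM. *Thbs1*, another matrix gene, went from 281 FPKM in the ES cell library to 3.12, 2.36 and 5.97 FPKM on the following days. *Gapdh* and *Actb* stayed, at 2627 and 2724 FPKM and at 1857 and 2031 FPKM.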
